A study of Mus musculus with 4 samples.

Results

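Spermatids of the mouse testis that stood out for their level of Dcdc2c, Faiml, Abra, Hemgn, Zc2hc1b and Trim42 were described in the single-cell RNA sequencing of the A0 and A10 libraries. In each of these libraries the 500 cells with the highest mean of the deposited values over the 6 genes were taken, so 1000 of the 18623 cells of A0 and A10 were members, of 27060 cells in the series. They made up 5.59% of the 8941 cells of A0 and 5.16% of the 9682 cells of A10. Since the 6 genes chose the cells, the levels of these genes in the members are a description and not a finding, and the same holds for the genes that go with them.

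All mice were male ICR, an outbred stock, and were juvenile, at about weaning age, when dosing began. The length of dosing is stated in more than one way in the sources used here, so the age at sampling is not given. A0 received water as vehicle by daily gavage and A10 received alginate oligosaccharides (AOS), short sugars cut from a brown seaweed polysaccharide, at 10 mg/kg by the same route. The other libraries, B0 (busulfan alone) and BA10 (busulfan, then AOS at 10 mg/kg), were used only to count cells that reached the same level. Busulfan is an alkylating drug that can kill germ cells of the testis. Testes of several mice were pooled into 1 library per group, the tubules were washed to remove spermatozoa, and transcripts were counted by 10x Genomics 3' chemistry through unique molecular identifiers (UMIs). With 1 library per group no comparison could be tested, and the intervals below (95%, exact) cover counting error only, not the spread between animals.

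A spermatid is the haploid cell that follows meiosis. It starts round, builds an acrosome from the Golgi, grows a flagellum and lengthens its nucleus while transition proteins and then protamines take the place of histones on the DNA. Most transcription stops as the nucleus condenses, and many messages made before that point are stored and translated later.

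The 6 genes have little in common by name. Dcdc2c belongs to the doublecortin family of microtubule-binding proteins, and Abra is an actin-binding protein known from striated muscle. Hemgn, or hemogen, is a nuclear protein best known from blood-forming cells. Faiml is a relative of Faim, an inhibitor of Fas-induced death, Trim42 is a tripartite motif protein, and Zc2hc1b carries a zinc finger of the C2HC type.

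In the GRCm38 (mm10) annotation all 6 are protein-coding genes on the minus strand and lie on 5 chromosomes. Dcdc2c lies at chr12:28437795-28552399, Hemgn at chr4:46393989-46413506, Abra at chr15:41864076-41869720 and Zc2hc1b at chr10:13149540-13178023. Faiml (chr9:99229376-99237239) and Trim42 (chr9:97349562-97369958) are 1859 kb apart. Esyt3, which headed the genes that were high in the members without being used by the rule, is the nearest to any of them of the 15 such genes named below, 72.7 kb from Faiml (chr9:99309963-99358557).

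RefSeq promoter sequences (GRCm38.p6, 250 bases before to 50 after each start) were given for 5 of the 6 genes, in 6 entries, and were searched on both strands for elements tied to spermatid transcription. The element of CREB and CREM, TGACGTCA, was in none of the 6 entries and in 1.79% of all 32851 promoters. Its core TGACG, or CGTCA on the other strand, was in an entry of Faiml and of Dcdc2c, any overlap with the full element counted, and in 20.8% of all promoters. The core of RFX factors, GTTGCC, was in none of the 6 entries and in 12.5% of all. The TATA box TATAAA was in that of Hemgn and in 13.6% of all. A match is a description of letters and not a site. The 250 bases before the start are shown for the entries with a match, with the match in capitals.
Faiml, chr9:99237240-99237489, minus strand: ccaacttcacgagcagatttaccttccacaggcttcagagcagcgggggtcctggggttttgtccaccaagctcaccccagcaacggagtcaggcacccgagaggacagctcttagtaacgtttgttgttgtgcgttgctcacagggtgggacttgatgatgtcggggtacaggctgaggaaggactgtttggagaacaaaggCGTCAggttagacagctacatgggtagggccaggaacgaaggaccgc
Dcdc2c, chr12:28552400-28552649, minus strand: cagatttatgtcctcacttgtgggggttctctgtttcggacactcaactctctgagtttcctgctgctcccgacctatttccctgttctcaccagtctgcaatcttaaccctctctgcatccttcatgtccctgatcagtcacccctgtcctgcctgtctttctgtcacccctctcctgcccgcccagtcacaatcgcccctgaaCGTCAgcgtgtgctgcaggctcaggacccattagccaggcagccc
Hemgn, chr4:46404184-46404433, minus strand: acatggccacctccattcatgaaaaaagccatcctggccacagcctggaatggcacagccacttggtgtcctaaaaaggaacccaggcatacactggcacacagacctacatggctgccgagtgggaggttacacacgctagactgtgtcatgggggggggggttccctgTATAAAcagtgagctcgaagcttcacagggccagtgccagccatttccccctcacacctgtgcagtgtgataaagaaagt
The CGTCA match began 47 bases before the start in Faiml and 45 bases before it in Dcdc2c, and TATAAA began 80 bases before the start in Hemgn. The RefSeq start of Hemgn lies inside the gene as GENCODE draws it. The other promoter entries, those of Trim42 and Zc2hc1b and another one of Dcdc2c, held none of the 4 motifs in these bases.

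The score, the mean of the 6 natural-log values of a cell, was 0 in 52.1% of A0 cells and in 54.4% of A10 cells. It reached 1.67 in A0 and 1.74 in A10. The choice did not fall on a gap in the scores: the cell just inside it scored 0.9566 and the cell just outside it 0.9564 in A0, against 0.9003 and 0.9001 in A10. Another 132 A0 cells and 111 A10 cells lay within 10% below it. The lowest member score of A0 was reached by 421 A10 cells (4.35%, interval 3.95% to 4.77%). It was reached by 0 of 4659 B0 cells, which allows a share of up to 0.0791%, and by 1 of 3778 BA10 cells. The median UMI count of a cell was 4214 in B0 and 17989 in BA10, against 12685 in A0 and 10948 in A10.

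UMIs of at least 4 of the 6 genes were seen in all 500 A0 members and of all 6 genes in 311 of them. In A10, 223 members had UMIs of all 6 genes, 214 of 5, 61 of 4 and 2 of 3.

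Hemgn was at 677 CPM in the A0 members and 694 CPM in the A10 members, where CPM is the number of UMIs of a gene per 1000000 UMIs summed over the cells of a set. It was at 56.8 CPM in the other A0 cells and 50.4 CPM in the other A10 cells. Every member carried a Hemgn UMI, against 29.0% of other cells in A0 and 27.4% in A10. Dcdc2c was at 315 CPM in A0 members and 280 CPM in A10 members, against 18.4 and 13.9 CPM in the other cells. Faiml was at 344 and 321 CPM in the members and at 21.9 and 19.7 CPM in the other cells. Abra (136 and 124 CPM), Trim42 (137 and 117 CPM) and Zc2hc1b (109 and 115 CPM) were seen in fewer members, 76.2% to 89.0% of them. The 6 genes were thus 3.55 to 4.24 higher on the log2 scale in members than in other cells, which is what the rule asked for.

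Free RNA gives a few UMIs of abundant genes in every droplet. In the 500 cells of each library with the highest mean of 5 meiotic prophase genes (Sycp1, Sycp2, Sycp3, Hormad1 and Pou5f2), Hemgn was seen in 11.2% of cells in A0 and 8.4% in A10, and Dcdc2c in 6.6% and 4.2%. The median depth of those cells was 13237.5 UMIs in A0 and 13415 in A10, against 14900 (interval 14265 to 15414) and 12700.5 (12285 to 13212) in the members. Scrublet called 10.8% of the meiotic prophase cells in A0 and 10.6% in A10 doublets (droplets with more than 1 cell), and 2 of these A0 cells were also members. The part of doublets in the shares above was not tested. The members' own shares for Hemgn and Dcdc2c were set by the rule.

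Each gene was also read in cells that it had not chosen, by leaving it out and taking the 500 cells with the highest mean of the other 5. As sums over the cells, all 6 left-out genes were higher in the cells so chosen than in the rest, in both libraries. Hemgn was at 649 CPM against 58.5 CPM in A0 and at 654 against 52.4 CPM in A10. Dcdc2c was at 292 against 19.7 CPM in A0 and at 259 against 15.2 CPM in A10. Across the 6 genes the ratio ran from 11.1-fold for Hemgn to 14.8-fold for Dcdc2c in A0, and from 12.5-fold for Hemgn to 17.1-fold for Dcdc2c in A10. Of the cells chosen without a gene, 455 to 466 of 500 were members. Single cells did not all follow: in A10, Zc2hc1b was seen in 68.2% of the cells chosen without it, Abra in 71.6% and Trim42 in 75.2%. The 6 genes were picked together with results of these data known, so this is a description of how they go together and not independent support.

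**Figure D1:**
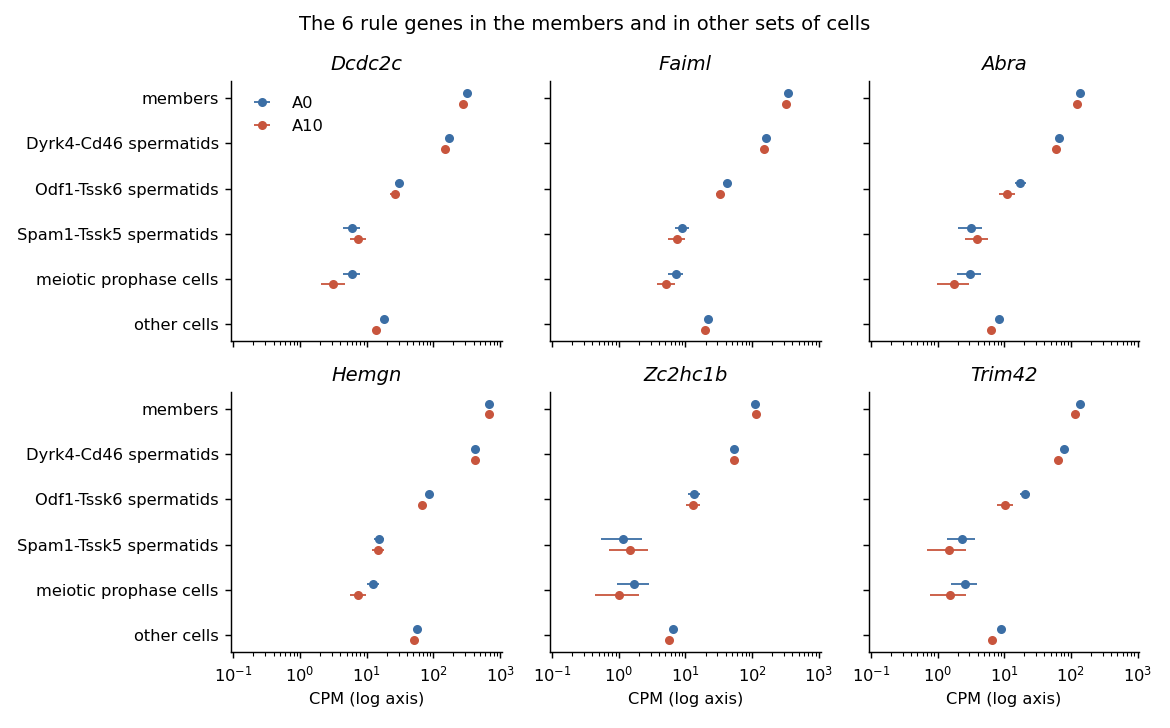
CPM (log axis) of the 6 genes that chose the members, in the members, in 4 other sets of 500 cells chosen the same way by the named genes, and in all other cells, for A0 (blue) and A10 (red); bars are exact Poisson intervals. All 6 genes stand highest in the members, next in the Dyrk4-Cd46 set, of which 147 A0 cells and 157 A10 cells are members, and lowest in the Spam1-Tssk5 and meiotic prophase sets.

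The label of spermatid was checked against marker genes. The 4 main genes of the histone exchange, Tnp1 and Tnp2 (transition proteins) and Prm1 and Prm2 (protamines), took a median of 10.6% of a member's UMIs in A0 (quartiles 8.65% and 11.98%) and 12.4% in A10 (9.91% and 14.1%). In the other cells the median was 0.845% in A0 and 1.14% in A10, and in the meiotic prophase cells it was 0.414% and 0.517%. Defining genes of other cell types were low, but the lists of Sertoli cells, of macrophage and endothelium and of muscle summed to more in the members than in the other cells. The Sertoli list of 9 genes summed to 35.6 CPM in A0 members against 19.9 CPM in other cells, and to 33.4 against 22.5 CPM in A10. The list of macrophage and endothelium summed to 24.0 against 15.4 CPM in A0 and to 23.9 against 13.5 CPM in A10. Most of that was C1qb, the 1 gene of that list called higher by the measure below, at 19.7 CPM in A0 members and 9.30 CPM in other cells, while Csf1r was at 0 UMIs in the members of both libraries. The 7 Leydig genes summed to 5.09 against 7.91 CPM in A0 and 4.61 against 10.5 CPM in A10, and 0 of them passed the filter below. In the Odf1-Tssk6 set the list of macrophage and endothelium summed to 52.3 CPM in A0 and 48.3 CPM in A10. The Sertoli list summed to 45.9 and 53.8 CPM there, so higher sums of these lists were not particular to the members. The part of other cells or of free RNA in all these sums was not tested. By these genes the members were spermatids with protamine message.

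Hemgn and Abra are known from blood and muscle, so those lists were read as well. Gata1, the master factor of red cells, was at 0.221 CPM in A0 members and 0.263 CPM in A10 members, Hba-a1 (alpha globin) was at 0.885 and 1.18 CPM, and Slc4a1 and Hba-a2 had 0 UMIs in both. Of the 13 genes only Gata2 and Klf1, both factors of blood-forming cells, passed the filter below, at 30.6 and 25.5 CPM in A0 members and at 33.3 and 31.9 CPM in other cells, and 0 were called. Ptprc, the pan-leukocyte CD45, was at 0.443 and 0.395 CPM. The 11 measured muscle genes summed to 9.18 CPM in A0 members against 6.61 CPM in other cells and to 5.92 against 5.42 CPM in A10, with Actc1 and Tnni2 at 0 UMIs in both. The globins and the contractile genes were thus near 0 where Hemgn and Abra were high.

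To place the members among the germ cells, the cells of each library were ordered by the share of UMIs in Prm1, Prm2, Tnp1 and Tnp2 and cut into 10 bins of equal size, bin 1 with the lowest share and bin 10 with the highest. Nearly all members fell into bins 8 and 9. In A0 bin 8 (4.79% to 10.5% of UMIs) held 242 members and bin 9 (10.5% to 16.2%) held 255, with 1 member in bin 7 and 2 in bin 10. In A10 bin 8 (5.51% to 13.4%) held 313 members and bin 9 (13.5% to 19.4%) held 183, with 4 in bin 7 and 0 in bin 10.

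All 6 genes were highest in bin 8 or 9 and low in bin 10, with some differences between them. In A0, Hemgn was at 3.09 CPM in bin 1, 14.6 CPM in bin 5, 143 CPM in bin 7, 361 CPM in bin 9 and 46.4 CPM in bin 10. Dcdc2c was at 1.88 CPM in bin 1, 41.4 CPM in bin 7, 139.8 CPM in bin 9 and 8.79 CPM in bin 10. In A10, Hemgn reached 343 CPM in bin 8 and was at 40.9 CPM in bin 10, and Dcdc2c reached 133 CPM in bin 8 and was at 7.24 CPM in bin 10. Faiml was the 1 gene of the 6 that was highest in bin 9 of A10, at 159.55 CPM against 140.1 CPM in bin 8. Hemgn was already at 49.9 CPM in bin 6 of A0 and 50.9 CPM in bin 6 of A10, where the other 5 genes were at 1.71 to 10.8 CPM. Prm1, which by construction grows along this order, was at 22579 CPM in bin 8 and 63299 CPM in bin 10 of A0, so the 6 genes were low again in the cells with the most protamine message.

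**Figure D2:**
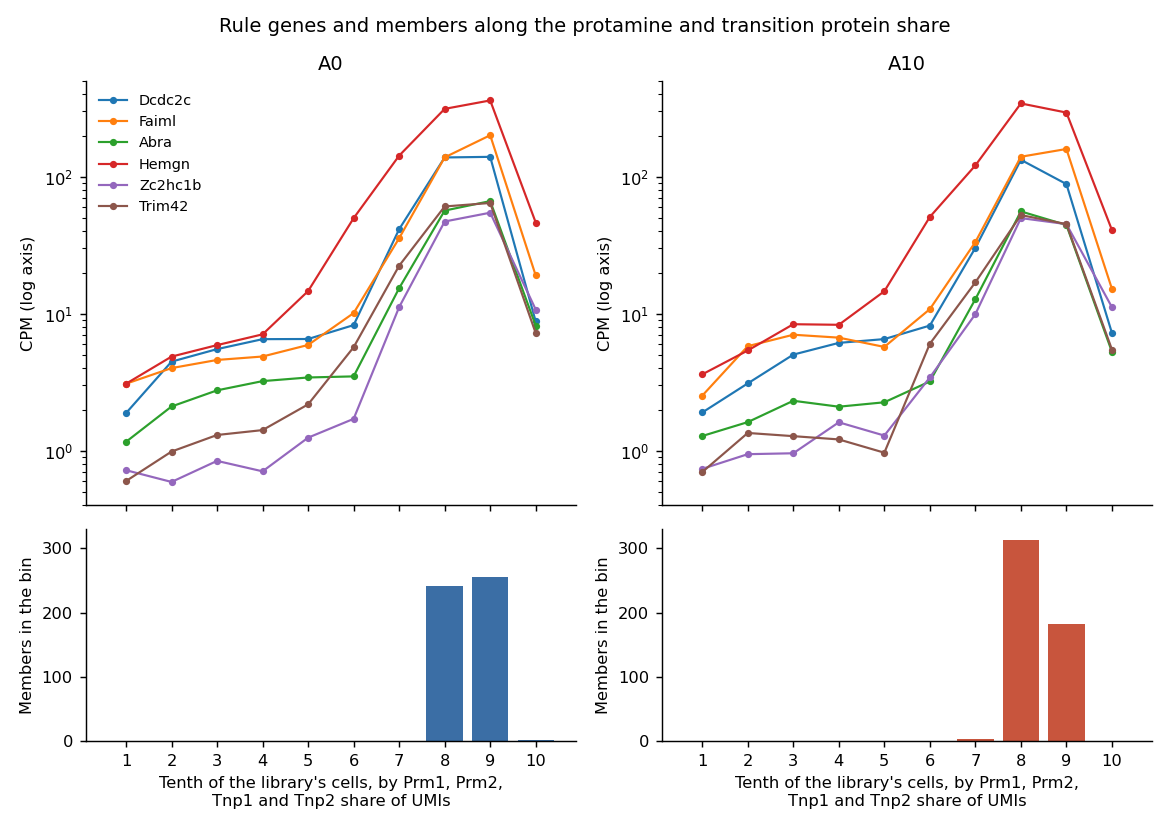
Top, CPM (log axis) of the 6 genes in the cells of A0 (left) and A10 (right), cut into 10 bins of equal size by the share of their UMIs in Prm1, Prm2, Tnp1 and Tnp2; bottom, the number of members in each bin. All 6 genes peak in bin 8 or 9, which hold 497 of 500 A0 members and 496 of 500 A10 members, and are low again in bin 10.

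Across all genes the members differed widely from the other cells of their library. Genes with a UMI in at least 5% of members or of other cells were compared as log2 ratios of CPM with 1 CPM added, and a gene was called at 2-fold or more. The 6 genes of the rule were left out of the counts. In A0, 1487 of 9642 genes (15.4%) were higher in members and 4512 (46.8%) lower. In A10, 1508 of 9336 genes (16.2%) were higher and 4414 (47.3%) lower. The median gene stood at -0.89 in A0 and -0.90 in A10. Taken relative to the median gene, 2748 genes were higher and 2193 lower in A0, and 2697 and 2190 in A10, so the excess of lower genes depends on the scaling. Shares of UMIs do not show whether a cell holds fewer messages of a gene or more of other RNA.

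Of the 9275 genes that passed the filter in both, 1358 were higher in the members of both and 4185 lower in both, and 0 were higher in one and lower in the other. That is 91.3% of the A0 and 90.1% of the A10 genes called higher. The ratios differed between the libraries by a median of 0.13 on the log2 scale. Of the 50 highest genes in A0, 37 were among the 50 highest in A10, and of the 50 lowest 25 were.

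**Figure D3:**
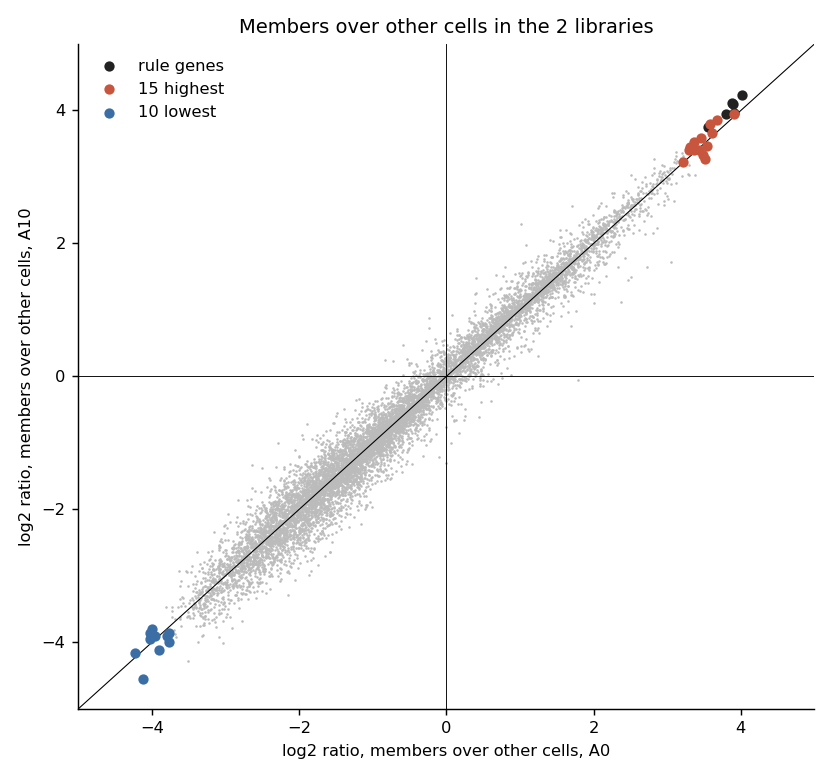
Log2 ratio of CPM (1 CPM added) in members over other cells, A0 on the x axis and A10 on the y axis, each grey point a gene that passed the filter in at least 1 comparison; the 6 rule genes are black, the 15 highest others red and the 10 lowest blue. The points lie along the diagonal line of equal ratios, and the 15 highest genes sit between 3.22 and 3.94 in both libraries.

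Next to the rule genes, 15 genes had the largest ratios in both libraries. Esyt3, an extended synaptotagmin that tethers the endoplasmic reticulum to the plasma membrane, was at 125 CPM in A0 members and 7.39 CPM in other cells, and at 90.1 and 4.94 CPM in A10. Its log2 ratio was 3.91 in A0 and 3.94 in A10. Nexn, the actin filament protein nexilin, was at 57.5 against 3.59 CPM in A0 and 59.5 against 3.17 CPM in A10. Sh3bp5, an exchange factor for Rab11, was at 230 against 21.4 CPM in A0 and at 196 against 17.7 CPM in A10.

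Mgat4e, a glycosyltransferase of the Mgat4 family, was at 163 CPM in A0 members and 151 CPM in A10 members, with log2 ratios of 3.46 and 3.58. Ppm1f, a protein phosphatase, had ratios of 3.61 and 3.65, and Rap1gap, which turns off the small GTPase Rap1, of 3.52 and 3.26. Sgip1, which takes part in endocytosis, had ratios of 3.54 and 3.47, and Kcnab3, a potassium channel beta subunit, of 3.37 and 3.53. Fam71a was seen in nearly every A0 member (99.6%) and stood at 558 CPM in A0 members against 59.1 CPM in other cells, and at 495 against 52.3 CPM in A10.

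The rest of the 15 were Hhipl2, Tm4sf4 (a four-span membrane protein), Col15a1 (a collagen), Gm30302, 4933406M09Rik and Btg1-ps2. Their log2 ratios ran from 3.30 to 3.59 in A0 and from 3.34 to 3.79 in A10. Btg1-ps2 lies on chromosome X and is named as a copy of Btg1, so reads may be split between near-identical copies and its value is uncertain. Mgat4e and 4933406M09Rik are neighbours on chromosome 1, with 150.0 kb between them, and Col15a1 lies 794.7 kb from Hemgn.

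In the meiotic prophase cells of A0 these 15 genes were at 0.490 to 17.8 CPM, and in the 500 spermatids chosen by Spam1 and Tssk5 they were at most at 16.1 CPM. In the 500 A0 spermatids chosen by Odf1 and Tssk6, Esyt3 was at 14.3 CPM and Fam71a at 123 CPM. The 15 genes thus had the same order of sets as the 6 rule genes. Members came first, the overlapping Dyrk4-Cd46 set next, then the Odf1-Tssk6 set. Over the Dyrk4-Cd46 set their log2 ratios were smaller, at 0.38 to 1.15 in A0 and 0.49 to 1.34 in A10. Only Gm30302, Sgip1 and Kcnab3 reached 2-fold over it in both libraries, and Hhipl2 did so in A0 only. Fam71a was at 558 CPM in A0 members and 409 CPM in that set. The shared cells draw these ratios towards 0.

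The 10 genes with the smallest ratios were all higher in the meiotic prophase cells than in the members, in both libraries. Cenpe, a kinesin of the centromere used in cell division, was at 4.87 CPM in A0 members and 109 CPM in other A0 cells, and at 4.74 and 102 CPM in A10. Lyar, a nucleolar protein, was at 243 against 3966 CPM in A0 and 264 against 4108 CPM in A10. Psip1, a chromatin reader, was at 42.7 against 597 CPM in A0 and 33.4 against 549 CPM in A10. Cdc42ep3, a Cdc42 effector, had the smallest ratio of the 10 in A10, -4.55, and -4.12 in A0.

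Mllt10 and Mphosph8, both chromatin proteins, were at 1167 and 388 CPM in the meiotic prophase cells of A0 and at 15.4 and 5.09 CPM in the members. Atxn7l3b, Pxt1, Slco6c1 (an organic anion transporter) and Lrriq1 had ratios of -3.77 to -3.96 in A0 and -3.86 to -4.11 in A10. All 10 stayed more than 2-fold lower relative to the median gene.

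The gene lists below are read against the shares of all genes, 15.4% called higher and 46.8% lower in A0 and 16.2% and 47.3% in A10. Counts relative to the median gene are read against 2748 higher and 2193 lower of 9642 genes in A0. In A10 these were 2697 and 2190 of 9336. The genes that package the nucleus stood farthest above these shares. Of 9 listed genes 8 passed the filter, and all 8 were called higher in members of both libraries, with a median log2 ratio over the 9 of 1.43 in A0 and 1.42 in A10, against -0.89 and -0.90 for all genes. Prm1 was at 30968 CPM in A0 members and 11120 CPM in other cells, and at 41729 and 15234 CPM in A10. Prm2 was at 36682 CPM in A0 members and 36736 CPM in A10 members. Tnp1 was at 11548 and 14351 CPM, and Tnp2 at 21193 and 22543 CPM. The ninth gene, Hist1h1t, a testis H1 histone, was at 0.443 CPM in A0 members and 0.263 CPM in A10 members and did not pass the filter. The members were not the cells with the most protamine message, since the Odf1-Tssk6 set had 41754 CPM of Prm1 in A0 and 62598 CPM in A10.

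Genes of the outer dense fibre and fibrous sheath list stood above the median gene throughout. The list also holds genes of other kinds, such as Smcp and Ldhc. Of its 18 genes, 5 were called higher and 0 lower in each library, with medians of 0.68 in A0 and 0.73 in A10. Of all genes, 15.4% and 16.2% were called higher and 46.8% and 47.3% lower. The list summed to 37626 CPM in A0 members, 34366 CPM in the Dyrk4-Cd46 set and 47708 CPM in the Odf1-Tssk6 set. Odf1, at 410 CPM in the Odf1-Tssk6 set, helped to choose that set. By these sums the level of the list was not particular to the members. All 18 lay above the median gene in both, and relative to it 15 were higher and 0 lower in each library, against 2748 higher and 2193 lower of all 9642 genes in A0. Smcp, a mitochondrial capsule protein, was at 6363 CPM in A0 members against 3264 CPM, and Spa17, which binds A-kinase anchors, at 3467 against 2033 CPM. Ropn1l was at 3726 against 3265 CPM, and Ldhc, the sperm lactate dehydrogenase, at 6922 against 7852 CPM. Akap3 and Ropn1, both of the fibrous sheath and named after their values were seen, were higher, at 977 against 358 CPM and 2065 against 756 CPM in A0.

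The genes that build the axoneme stood near the median gene. Of 30 listed genes 29 were in the table and 28 passed the filter. Of these, 2 were called higher and 16 lower in each library, a smaller share than the 15.4% higher and a larger one than the 46.8% lower of all genes in A0, with medians over the 29 of -1.19 in A0 and -1.20 in A10, near that of all genes. Relative to the median gene, 3 were higher and 7 lower in A0, and 4 and 7 in A10. Ift172, of intraflagellar transport, was at 624 CPM in A0 members against 287 CPM, with a log2 ratio of 1.12 in A0 and 1.16 in A10. Dnaaf1, a dynein assembly factor, was at 464 against 1047 CPM, and Meig1 at 7659 against 7532 CPM. Spag17, of the central pair of microtubules, was at 487 against 662 CPM. Named after their values were seen, Dnah8, a dynein heavy chain of sperm, was at 92.8 against 714 CPM, and Tekt5, a tektin, was the other gene called higher, at 260 against 82.5 CPM in A0.

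Acrosome genes were mixed. Of 26, 0 were called higher and 11 lower in A0, and 2 higher and 9 lower in A10, with medians of -0.55 and -0.19. The shares called lower were below the 46.8% and 47.3% of all genes. Relative to the median gene, 10 were called higher and 4 lower in A0, and 12 and 4 in A10. Over all genes the direction with more calls turned with the scaling as well, with 2748 higher and 2193 lower of 9642 in A0. The turn is thus not particular to this list. Izumo2, of the Izumo family, was at 732 CPM in A0 members against 384 CPM, Spaca7 at 470 against 308 CPM, Fam170b at 461 against 347 CPM and Spaca3 at 458 against 390 CPM. Named after their values were seen, Zpbp2 (a zona pellucida binding protein) had log2 ratios of -3.34 and -3.26, Dpy19l2, which anchors the acrosome to the nucleus, of -2.64 and -2.55, and Spam1, a hyaluronidase, of -2.72 and -2.62. These 3 stayed lower relative to the median gene too.

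Genes of meiotic prophase were called lower more often than all genes (46.8% in A0 and 47.3% in A10). Of 18 prophase genes, 18 passed the filter in A0, 1 higher and 14 lower, and 17 in A10, 1 higher and 13 lower. Relative to the median gene, 4 were higher and 8 lower in A0, and 3 and 8 in A10, with 2748 higher and 2193 lower of all 9642 genes in A0. Syce1 of the synaptonemal complex was at 261 against 595 CPM in A0, and Smc1b, a meiotic cohesin, at 146 against 320 CPM. Syce2 was at 647 against 402 CPM and Syce3 at 327 against 184 CPM, short of 2-fold. The genes called higher, named after their values were seen, differed between the libraries. Dmc1, a recombinase, was called in A0 at 3.21 against 0.698 CPM and did not pass the filter in A10. Msh4, a recombination factor, was called in A10 at 22.9 against 8.46 CPM and was at 18.0 against 9.59 CPM in A0.

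Of 13 genes of the meiotic divisions, 12 were lower and 0 higher in each library, with medians of -3.11 and -2.97, and 11 of the 12 were lower relative to the median gene too. Ccnb2, a cyclin, was at 46.1 against 306 CPM, Ccna1 at 27.7 against 251 CPM, Aurka, a mitotic kinase, at 25.7 against 246 CPM and Ccnb1 at 24.3 against 185 CPM in A0. This was the list with the lowest median in both libraries.

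**Figure D4:**
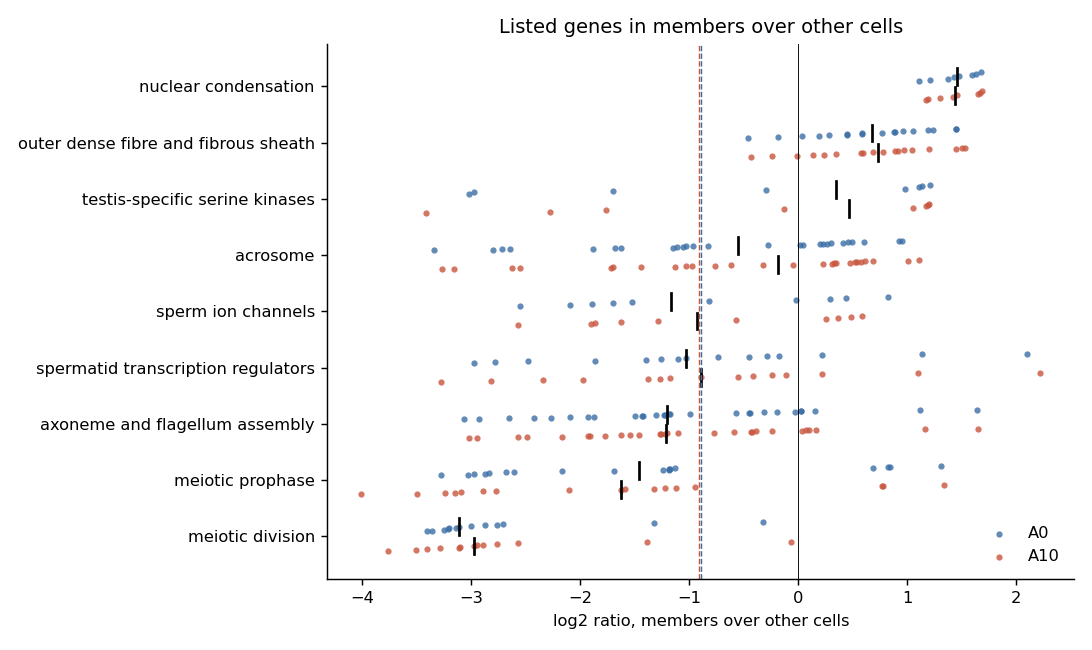
Log2 ratio of CPM (1 CPM added) in members over other cells for the genes of 9 lists that passed the filter, A0 in blue and A10 in red; black bars are the medians of the genes shown and dashed lines the median of all genes in each library, -0.89 and -0.90. All 8 nuclear condensation genes lie above 1, and 12 of the 13 genes of the meiotic divisions lie below -1.

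Of 15 regulators of spermatid transcription, 2 were called higher in each library and 8 were lower in A0 and 7 in A10, with medians of -1.03 and -0.89, close to the median gene. Relative to it, 3 were higher and 3 lower in A0, and 3 and 4 in A10. Fhl5 (ACT), the testis coactivator of CREM, was at 1623 CPM in A0 members against 378 CPM in other cells and at 1525 against 326 CPM in A10, with log2 ratios of 2.10 and 2.22. Crem itself was at 233 against 475 CPM in A0. Sox30, a factor that switches on spermatid genes, was at 219.8 against 99.3 CPM in A0 and 185 against 85.4 CPM in A10. Fhl4, another LIM domain protein, was at 1747 against 2393 CPM. Tbpl1, the TBP-like factor, named after its values were seen, was at 117 against 928 CPM, with ratios of -2.98 and -2.81.

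Of 8 testis-specific kinases, 3 were called higher and 3 lower in A0, and 4 and 3 in A10, with 15.4% and 16.2% of all genes called higher and 46.8% and 47.3% lower. Relative to the median gene, 4 were higher and 2 lower in both. Tssk2 was at 1884 CPM in A0 members against 875 CPM, Tssk6 (also in the nuclear list, and needed for chromatin condensation) at 1045 against 450 CPM, Tssk3 at 676 against 308 CPM and Tssk1 at 1185 against 599 CPM. Their log2 ratios were 0.98 to 1.21 in A0, and all 4 were called in A10. The list summed to 5030 CPM in A0 members, 4525 CPM in the Dyrk4-Cd46 set and 5725 CPM in the Odf1-Tssk6 set. Tssk6 helped to choose the Odf1-Tssk6 set, so its part in that sum was set by the choice. By the sum in the Dyrk4-Cd46 set, which holds some members, the level of the list was not particular to the members. Tssk5, Stk31 and Stk33, named after their values were seen, were the 3 called lower, at 2.66, 4.76 and 85.0 CPM in A0 members against 27.7, 45.8 and 277 CPM.

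Of the sperm ion channel genes, 11 of 12 were in the table and 10 passed the filter, of which 0 were higher and 5 lower in each library, a share near the 46.8% and 47.3% of all genes. Against the median gene 3 were higher and 3 lower in A0, and 4 and 1 in A10. Catsperd was at 135 against 75.7 CPM in A0, Catsper4 at 114 against 92.7 CPM, Catsper1 at 72.7 against 53.3 CPM and Catsper3 at 59.3 against 105 CPM. None of these 4 reached 2-fold in either library.

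Of 14 relatives of the 6 genes, 9 passed the filter in each library, 2 higher and 5 lower, or 3 higher and 1 lower relative to the median gene. These counts are near the shares of all genes, 15.4% higher and 46.8% lower in A0, and are no result about the family. Trim36 was at 956 CPM in A0 members against 328 CPM in other cells and at 793 against 264 CPM in A10, with ratios of 1.54 and 1.58, and Trim17 had ratios of 1.49 and 1.55. Trim69 was at 67.0 against 199 CPM and Zc2hc1c at 33.2 against 73.9 CPM in A0. Dcdc2a and Faim, named after their values were seen, were lower, with ratios of -3.28 and -1.62 in A0 and -3.16 and -1.62 in A10.

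The SRF pathway in which Abra acts in muscle was read in the same way. Of 12 genes 8 passed the filter, 2 higher and 4 lower in each library, near the 15.4% and 46.8% of all genes in A0. Relative to the median gene, 2 were higher and 2 lower in A0, and 2 and 3 in A10. The cytoplasmic actins parted: Actb was at 1650.5 CPM in A0 members against 562 CPM in other cells, and Actg1 at 165 against 1123 CPM. In A10 they were at 1519 against 499 CPM and at 157 against 1129 CPM. Actb was thus higher and Actg1 lower in members of both libraries. Actg1 was low in the Dyrk4-Cd46, Odf1-Tssk6 and Spam1-Tssk5 sets of A0 as well, at 207, 235 and 303 CPM. Actb was at 1191, 948 and 363 CPM in these sets. The meiotic prophase cells of A0 had 364 CPM of Actb and 2014 CPM of Actg1. Mkl2, an SRF coactivator, was at 21.8 against 9.65 CPM in A0, and Vcl (vinculin) at 16.4 against 17.8 CPM. Srf, named after its values were seen, was at 3.43 against 22.9 CPM.

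Of 12 genes of spermatogonia, 5 passed the filter in A0 and 4 in A10. Sohlh1, a helix-loop-helix factor of spermatogonia, was the one called higher in A0, at 19.1 CPM in members against 1.90 CPM in other cells, and at 15.5 against 1.45 CPM in A10. In A10 Uchl1 was also called, at 15.7 against 6.24 CPM. Id4 was called lower, at 10.7 against 36.6 CPM, and Dazl was at 11.8 against 23.1 CPM in A0. On the scale relative to the median gene, 3 were higher and 0 lower in A0, where the call of Id4 was lost, and 2 higher and 1 lower in A10. Of the Sertoli genes Amhr2, a receptor of the TGF-beta family, was called higher, at 13.4 against 4.51 CPM in A0 and 12.2 against 5.19 CPM in A10, while Fshr was at 0 UMIs and Sox9 at 2.55 CPM in A0 members.

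X-linked genes are silent in meiosis and come back in part in spermatids. The 756 genes of chromosome X took 1.75% of the UMIs of A0 members and 1.83% of those of A10 members. They took 0.870% and 0.853% in the other cells and 0.212% and 0.190% in the meiotic prophase cells. The share was nearly the same in the Dyrk4-Cd46 set, part of which are members, at 1.72% and 1.74%, and it was 1.43% and 1.52% in the Odf1-Tssk6 set, so it was not particular to the members.

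Among the sets compared here, the one most like the members was that of the 500 spermatids chosen by Dyrk4 and Cd46. No set was chosen by Prss51, which led a cluster with 108 A10 members (below). The Dyrk4-Cd46 set lay earlier in the order of protamine message (median 5.53% of UMIs in A0 and 6.04% in A10). Against it, 141 of 8642 genes (1.63%) were higher in members and 733 (8.48%) lower in A0, and 160 of 8203 (1.95%) higher and 743 (9.06%) lower in A10. That set shares 147 cells with the members in A0 and 157 in A10, which draws the ratios towards 0. Against its 353 A0 cells that were not members, a comparison added after seeing the data, 463 of 8801 genes (5.26%) were higher in members and 1252 (14.2%) lower, and against the 343 such cells of A10 485 of 8267 (5.87%) were higher and 1383 (16.7%) lower.

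In the A0 cells of that set that were not members, Fhl5 was at 1180 CPM against 1623 CPM in members, Actb at 1056 against 1650.5 CPM, and Esyt3 at 49.1 against 125 CPM. Fhl5 and Actb were thus short of 2-fold, and in A10 as well, at 1087 against 1525 CPM and 886 against 1519 CPM. Hemgn was at 327 CPM in these cells of A0 and 292 CPM in those of A10. In the whole set, with the shared cells, Dcdc2c, Hemgn and Trim42 were short of 2-fold below the members in both libraries.

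The spermatids of the Odf1-Tssk6 set had a larger share of protamine message (median 15.7% of UMIs in A0 and 18.9% in A10). Among the sets compared here that shared few cells with the members, it was the most like them. It shared 18 cells in A0 and 13 in A10. Against it, 1332 of 8369 genes (15.9%) were higher in members and 1061 (12.7%) lower in A0, and 1585 of 7754 (20.4%) higher and 620 (8.0%) lower in A10. Among genes described above, Fhl5 stood at 1623 CPM in A0 members and 412 CPM in that set, and Akap3 at 977 and 350.0 CPM. Smcp was on the other side, at 6363 CPM in members and 14216 CPM in that set in A0, and 5866 and 13224 CPM in A10. Both sets were chosen by their genes, so these are descriptions.

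How far the members form a group of their own was read from the other genes alone. On 30 principal components without the 6 genes, 78.8% of the 15 nearest neighbours of an A0 member were members, and 74.8% in A10, against 5.59% and 5.16% of members in the libraries. In A0, 3 members had no member among their neighbours, and in A10, 9. At least 8 of the 15 neighbours were members for 415 A0 members and 414 A10 members, and for 89 and 100 cells that were not members.

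Clustering on these neighbours put 379 of the A0 members (75.8%) in 1 cluster of 471 cells, led by Gm30302, Esyt3, Sgip1, Kcnab3 and Rap1gap. Another 96 were in a cluster of 258 cells led by Nim1k, Col9a3 and Cd46. In A10, 325 members (65.0%) were in a cluster of 379 cells led by Nexn, Esyt3, Kcnab3 and Gm30302. The next were 108 in a cluster of 716 cells led by Rnf144a and Prss51, the genes that also led an A0 cluster with 9 members, and 57 in one of 550 cells led by Dyrk4 and Tmco5b. Rule genes took no part in this, but genes that go with them did, so it is a description and no test.

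The members of these clusters differed in their protamine level. In A0 the 379 had 33699 CPM of Prm1 and 184 CPM of Acrv1, an early acrosome gene, while the 96 had 21315 CPM of Prm1 and 329 CPM of Acrv1. In A10 the 57 members beside Dyrk4 had 25521 CPM of Prm1 and 316 CPM of Acrv1, the 325 had 42397 and 222 CPM, and the 108 had 54742 and 27.5 CPM. Esyt3 was at 132 CPM in the 379 and 111 CPM in the 96 of A0, and in A10 at 104 CPM in the 325, 85.0 CPM in the 57 and 40.4 CPM in the 108. The members of 1 library thus differed among themselves in Prm1 and Acrv1.

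Members had more UMIs and fewer genes than other cells. The median was 14900 UMIs and 3102 genes in A0 members, against 12502 UMIs and 3371 genes, and 12700.5 UMIs and 2854.5 genes in A10 members, against 10803.5 UMIs and 3089.5 genes. After every cell was thinned to 5000 UMIs, A0 members had a median of 1789.5 genes and other cells 2156, and A10 members 1769.5 and other cells 2140, with 0 cells left out of either library. Scrublet called 3.00% of A0 members (interval 1.69% to 4.90%) and 2.60% of A10 members (1.39% to 4.41%) doublets, against 8.36% and 8.98% of other cells. The libraries shared 135 cell barcodes, 1 of them between a member of A0 and a member of A10.

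The last comparison asked whether these spermatids differed under AOS. It set the 500 A10 members against the 500 A0 members, with 1 library on each side, so differences between mice, library and AOS cannot be told apart. The members also fell into clusters unevenly, but clusters were drawn in each library on its own, so their borders need not match. In A10, 108 members (21.6%) were in the cluster led by Rnf144a and Prss51, at 54742 CPM of Prm1. The A0 cluster led by the same genes held 9 A0 members (1.8%). By bins of the protamine and transition protein share, bin 8 held 242 A0 and 313 A10 members. Bin 9 held 255 A0 and 183 A10 members. The part of these differences in the ratios below was not tested. Few genes differed by 2-fold: of 7947 genes, 13 (0.164%) were higher and 25 (0.315%) lower in A10 members, and the median gene stood at -0.04. These counts rest on the settings, at 55 and 62 with 250 cells per library, 7 and 15 with 1000 cells, and 1 and 0 with 10 CPM added in place of 1, so nearly all of the calls are of genes at a low level. The 90% of genes in the middle lay between -0.43 and 0.40. In the other cells, summed over far more UMIs, 3 of 9006 genes (0.0333%) were higher in A10 and 6 (0.0666%) lower. The part of depth in this difference was not tested. Since the same number of members was taken in each library, the number of such cells was not compared by this.

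In the lists of nuclear condensation, outer sheaths, axoneme, acrosome, meiosis, ion channels, kinases and transcription, 0 genes were called in either direction. With 0.164% and 0.315% of all genes called, that sets these lists apart from no other genes. The medians of the lists lay between -0.12 and 0.08. The 6 rule genes were between -0.23 (Trim42) and 0.08 (Zc2hc1b).

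Prm1 lay just above that middle range, at 41729 CPM in A10 members and 30968 CPM in A0 members, 0.43 on the log2 scale, while Prm2 was at 36736 and 36682 CPM, 0.00. Tnp1 was at 14351 and 11548 CPM, 0.31. Prm1 was higher in A10 in the other cells as well, at 15234 against 11120 CPM, and in bin 1 of the cells, with the lowest share of these genes, at 1478 against 993 CPM. The part of free RNA in this difference was not tested.

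The 8 genes with the largest ratios in A10 members, among genes with at least 20 UMIs in both sets of members together, were BC029214, Mrgpra2b, Speer1, Shtn1, Gss, Lrpprc, Gm5169 and Gm40011. BC029214 was at 66.6 CPM in A10 members and 18.7 CPM in A0 members (506 and 169 UMIs). Its log2 ratio without added CPM was 1.83 (interval 1.58 to 2.09), against 1.05 in the other cells. Gss, glutathione synthetase, was at 37.8 and 14.9 CPM, with a ratio of 1.34 (1.04 to 1.64) in members and 0.89 in other cells. Shtn1, shootin, was at 17.8 and 6.42 CPM, with ratios of 1.47 (1.01 to 1.94) and 0.68. In these 3 genes A10 was higher in both sets of cells.

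Speer1 was at 13.0 and 3.87 CPM in the members and at 113 and 32.5 CPM in the other cells, with a log2 ratio of 1.75 and 1.80. It belongs to a family of near-identical copies, so its counts are uncertain. Mrgpra2b, of a receptor family with close copies as well, had 51 UMIs in A10 members and 12 in A0 members. The remaining 3 rested on few UMIs: Lrpprc on 34 and 12, Gm5169 on 27 and 9 and Gm40011 on 32 and 12. Lrpprc, a mitochondrial RNA-binding protein, had a ratio of 1.75 (0.77 to 2.84) in members and -0.06 in the other cells (-0.16 to 0.05). The named genes of this comparison were picked as the largest and smallest ratios in members. Their intervals do not allow for that choice.

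The 8 genes with the smallest ratios were Cpne7, 1600014C10Rik, Fam131c, Nectin4, Blnk, Nek7, Ppp1r14c and Pcdh9. Cpne7, a calcium-dependent membrane-binding copine, had 42 UMIs in A0 members and 0 in A10 members, which makes it at least 11.8-fold lower when 3 counts are allowed for the 0. In the other cells it had 90 UMIs in A0 and 5 in A10. Fam131c was at 2.89 CPM in A10 members and 14.8 CPM in A0 members (22 and 134 UMIs), with a log2 ratio of -2.36 (interval -3.08 to -1.70) and of -2.30 in other cells. 1600014C10Rik was at 1.71 and 12.9 CPM, with ratios of -2.92 and -3.28.

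Nek7, a kinase, was at 8.55 CPM in A10 members and 25.2 CPM in A0 members, with a ratio of -1.56 (interval -1.98 to -1.16) against -0.62 in other cells. Nectin4, a cell adhesion protein, was at 5.92 and 19.6 CPM, with -1.73 against -0.84. Blnk, an adaptor known from B cells, was at 2.24 and 8.08 CPM, with -1.85 against -0.60. Ppp1r14c, an inhibitor of protein phosphatase, had ratios of -1.71 and -1.60, and Pcdh9, a protocadherin, of -2.29 and -2.99 on 5 and 29 UMIs. All 8 were also lower in the other cells of A10, and the differences between members and other cells were not tested.

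**Figure D5:**
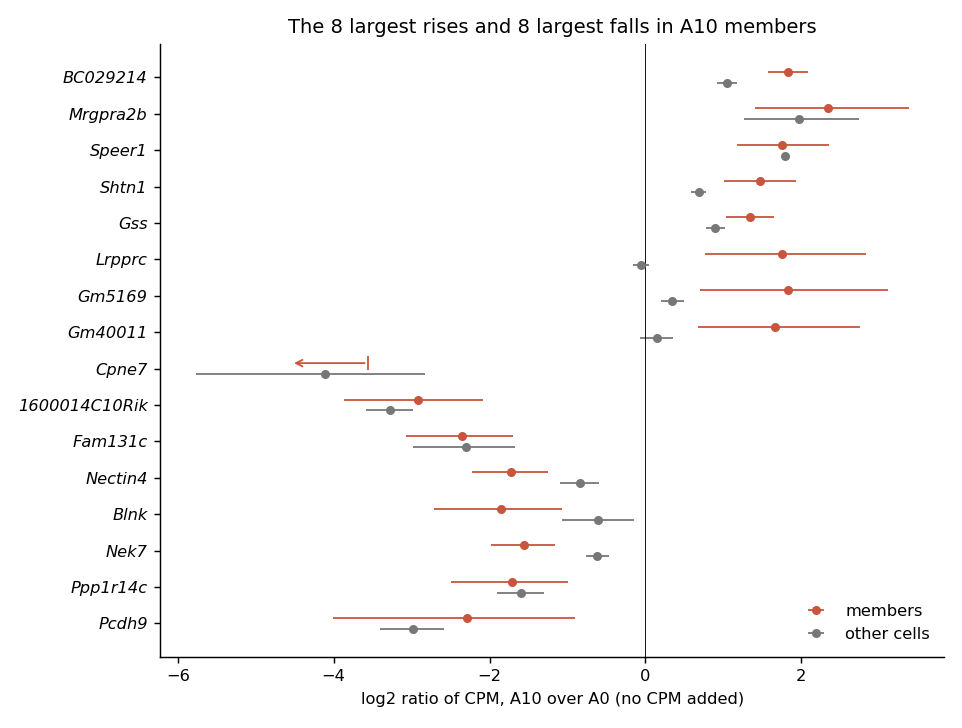
Log2 ratio of CPM in A10 over A0, with no CPM added, for the 8 highest and the 8 lowest ratios, in members (red) and in all other cells (grey); bars are exact intervals for counting error, and the arrow of Cpne7 starts at the bound that 3 counts give. The 8 lowest genes lie below 0 in both sets of cells, and BC029214, Mrgpra2b, Speer1, Shtn1, Gss and Gm5169 lie above 0 in both.

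The share of protamine and transition protein message moved with the library. It was higher in A10 than in A0 members, as given above, and the median share was higher in A10 in each of the 10 bins. By rank within its library the median member stood at 80.2% in A0 and 78.9% in A10. Esyt3, the gene with the largest ratio of members over other cells beside the rule genes, was at 90.1 CPM in A10 members and 125 CPM in A0 members, a log2 ratio of -0.47, and at -0.50 in the other cells. The part of stage in these differences was not tested.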

How the data were processed

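Testis cells of 4 pools of male ICR mice (A0, A10, B0, BA10) were measured with 10x Genomics 3' libraries, 1 library per group, so no comparison has replicates and no paired design. The authors aligned reads with Cell Ranger 2.2.0 to mm10, removed cells with few genes and genes seen in few cells, and deposited 1 table of natural log values, ln of 1 plus the UMI share of a gene in its cell times 10000. Whole UMIs were recovered from these values (100% of values within 0.001 of a whole number) and summed over cells.

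The members and gene lists were chosen with earlier results of these data known. Ratios were taken on the log2 scale with 1 CPM added, for genes with a UMI in at least 5% of cells of either set, and called at 2-fold. Named genes were the 6 rule genes, up to 4 genes per list by level in members, the 15 highest and 10 lowest ratios (by the ratio nearer to 0 of the 2 libraries) and the 8 largest differences of A10 over A0 in each direction. Intervals are exact (Poisson, Clopper-Pearson, conditional binomial) at 95% and cover counting error only. A floor of 3 counts stood for 0. Neighbours and Leiden clusters used 2000 variable genes without the rule genes (scanpy 1.11.5, scikit-learn 1.9.0, leidenalg 0.10.2), and Scrublet calls were marked but kept. The ratio step was run on simulated Poisson counts. These have no spread between cells or animals and no choice of cells, so the run cannot speak to those. Alternatives changed the number of cells, the score, its genes, doublets, the CPM added, the filter and the level, and, chosen after seeing the data, the scaling to the median gene. Coordinates are GENCODE M21 on GRCm38. Cells of the authors' own clusters were not used here.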

Additional observations from a re-analysis of the deposited data

Results flagged for a closer look

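A pair of list genes had A10 over A0 ratios of opposite sign in members and in other cells, with counting intervals that leave out 0 on both sides. Smc1b, a meiotic cohesin, had a log2 ratio of 0.12 in members and -0.060 in other cells. Ccna1, a cyclin, had a log2 ratio of 0.32 in members and -0.056 in other cells. With 1 library per group the difference was not tested, and both are far below 2-fold.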

How the results depend on the processing

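No paired analysis was possible because each group is 1 library, and leaving out a replicate was not possible for the same reason. With 10 CPM added in place of 1, 868 genes were higher and 2388 lower in A0 members than in other cells, 882 and 2410 in A10, and 1 higher and 0 lower in A10 members than in A0 members. Relative to the median gene the first 4 counts were 2748, 2193, 2697 and 2190. The genes higher and lower in A10 members were 55 and 62 with 250 cells, 7 and 15 with 1000 cells, and 24 and 42 with no filter. Of the 13 higher genes, 12 were also called with 250 cells and 6 with 1000 cells, and of the 25 lower genes, 15 and 12.

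The share of neighbours that are members in A0 was 77.75% with 1000 variable genes, 56.4% with 250 cells, 85.47% with 1000 cells and 60.99% with scores after thinning to 5000 UMIs. In A10 it was 61.79% with 250 cells, 82.73% with 1000 cells, 77.48% with linear values, 60.04% after thinning and 76.65% without Scrublet calls. The share of members in the library changes with their number. It was 2.80% with 250 cells and 11.2% with 1000 cells in A0, and 2.58% and 10.3% in A10. The score after thinning shared 77.8% of its cells with the members in A0 and 77.4% in A10. No ratio of a named gene called at 2-fold changed its sign under any alternative run, and for other genes only the counts were run. The median UMIs per member stayed within the spread under all 5 alternatives tried. At this depth, ratios of genes with few UMIs rest on counting error that the intervals give.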
